A study of Mus musculus with 18 samples.

Results

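Synaptic vesicle and active zone genes encode the proteins with which a presynaptic terminal stores, releases and recycles transmitter. The 38 genes described here, of 19057 with a probe on the Illumina MouseWG-6 v2 BeadChip, were chosen by name. They were chosen with earlier results of these data known. Each was followed at its probe with the highest mean over all 18 arrays. Granule neuron progenitors (GNPs), the dividing cells of the outer cerebellum that give rise to granule neurons and to Sonic hedgehog medulloblastoma (MB), were purified at postnatal day 6 on a Percoll gradient followed by pre-plating. There were 4 GNP genotypes with 4 arrays each, which were wild type, Ptch+/-, NdpKO and NdpKO;Ptch+/-, and 1 MB each from a Ptch+/- and an NdpKO;Ptch+/- mouse. Ptch1, the hedgehog receptor that holds the pathway off, is intact on 1 allele in Ptch+/- mice. Ndp, an X-linked gene disrupted by a lacZ cassette in NdpKO mice, encodes Norrin, a ligand of Frizzled4 on blood vessels. No group received a treatment. Wild-type and Ptch+/- samples are labelled as C57Bl/6 and NdpKO samples as a mixed background, and NdpKO;Ptch+/- samples mostly carry no strain label, so Ndp loss and strain cannot be told apart from the labels alone, although the study describes controls from the same breeding cohort. By the study's methods, NdpKO and NdpKO;Ptch+/- mice were all male, whereas controls included both sexes. Ndp loss and sex therefore cannot be fully told apart either. Replicates came from different animals, as the study states. The tumours were dissected from symptomatic mice, yet their labels also give postnatal day 6.

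Fusion of a vesicle is driven by a SNARE complex of syntaxin and SNAP25 on the plasma membrane and synaptobrevin on the vesicle, which synaptotagmins trigger in response to calcium and complexins clamp. RIM, Munc13, bassoon and piccolo proteins form the active zone where vesicles dock and are primed, vesicular glutamate transporters fill the vesicles of excitatory neurons, and dynamin, amphiphysin and intersectin retrieve the membrane. Granule neurons are glutamatergic and assemble these terminals after they leave the cell cycle.

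Levels are log2 values after the authors' background correction and normalization. Level 5 lies near the background of the scale, and where every array of a group lay below it a fold is given against it as a lower bound ("at least"). Levels of different probes cannot be set against each other. The targeted gene Ptch1 lay between 8.56 and 8.70 in wild-type and between 7.63 and 7.94 in Ptch+/- GNPs. It lay between 8.65 and 8.97 in NdpKO and between 7.80 and 8.23 in NdpKO;Ptch+/- GNPs. In the tumours it was measured at 8.69 in the Ptch+/- and 7.01 in the NdpKO;Ptch+/- MB. The other targeted gene, Ndp, lay below level 5 on every array, wild type included. Its probe therefore cannot check the Ndp genotype of any array. The title of 1 array names it NdpKO;Ptch+/- replicate 2 whereas its source and genotype labels say Ndp knockout. Its Ptch1 level was 7.80, the lowest of its titled group and below all NdpKO arrays (8.65 to 8.97). The array was kept in its titled group and tried in the other. On the first principal component, which held 43.6% of the variance of 1500 variable probes, NdpKO replicate 4 (-15.2) lay on the side of wild type (-23.1 to -14.4). NdpKO;Ptch+/- replicate 1 (16.6) lay on the side of Ptch+/- (12.6 to 17.7). The other NdpKO arrays lay between 14.5 and 20 and the other NdpKO;Ptch+/- arrays between -19.7 and -8.41. NdpKO replicate 4 and NdpKO;Ptch+/- replicate 1 are called the arrays that lay apart. They were picked from these same expression data, so calls gained without them are no independent support. Of 9 GNP identity markers, 7 were at or above level 5 on average, among them Zic1, Barhl1 and Meis1, but the Atoh1 and Pax6 probes lay near background. In bulk samples, fewer cells of a type and less RNA per cell cannot be told apart.

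Of the 38 genes, 18 were at or above level 5 on all 18 arrays, 9 on some and 11 on none. Both members listed under SNARE disassembly, Nsf and Napb, were measured throughout, as were Stx1a and Vamp2 of the SNARE core. The same held for Cplx1, Cplx2, Syt1 and Syt11 of the clamps and calcium sensors, and for Slc17a6. Of the 10 vesicle membrane, synapsin and Rab3 genes, 6 were measured throughout, namely Syp, Sv2a, Sv2b, Syn1, Syn2 and Rab3a. Of the 7 active zone genes this held for Rims2 and Rims3 and of the 4 endocytic genes for Amph. The SNARE gene Snap25, with 2 probes, lay between 4.105 and 4.123 on all 18 arrays, and the scaffold gene Bsn, also with 2 probes, between 4.12 and 4.17. Pclo (4.13 to 4.19), Dnm1 (4.12 to 4.18), Snap91 (4.12 to 4.23), Vamp1 (4.18 to 4.31), Syt2, Doc2b, Sv2c, Rab3b and Rab3c stayed below level 5 as well, so nothing about their expression can be read from these probes. Within a genotype the SD of a member ranged from 0.13 for Syp to 0.62 for Syt5 among the 27 genes that reached level 5 on any array. Of all probes, only 23% to 23.9% were at or above level 5 on an array. The shares over all genes and all probes given below therefore include many probes near background. They are not matched to the members in level. The counts and shares of members likewise include the 11 genes below level 5 on all arrays.

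**Figure D1:**
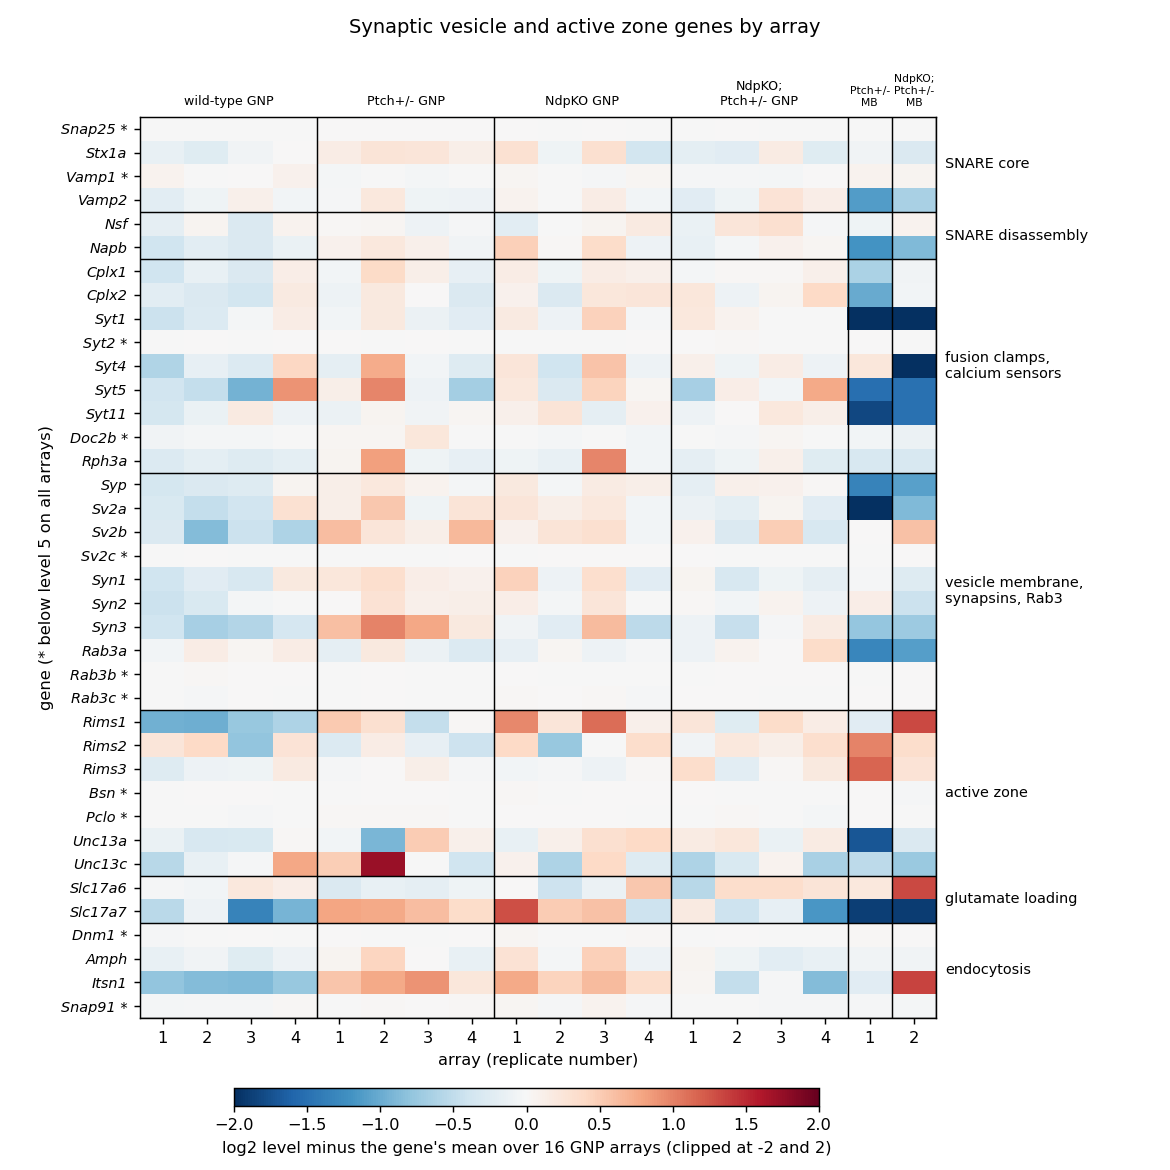
Log2 level of each of the 38 genes on each array, minus the mean of the gene over the 16 GNP arrays (colour, clipped at -2 and 2), with genes grouped by role and arrays by genotype. Asterisks mark the 11 genes below level 5 on all arrays. Wild-type GNPs are mostly blue for Rims1, Slc17a7 and Itsn1, and both MBs are blue for Syt1, Syt5, Syt11 and Slc17a7.

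In Ptch+/- GNPs, 3 of the 38 genes rose against wild type and none fell. The 3 were Itsn1, a scaffold of clathrin-mediated endocytosis, Sv2b, a vesicle glycoprotein, and Syn3, a synapsin of immature neurons. These are 7.89% of the members, beside 1.70% of all genes at 1 probe per gene and 1.09% of all probes (limma, adjusted p under 0.05 over 45281 probes). The median difference of the 38 genes was 0.11 on the log2 scale with 30 genes on the positive side, whereas the median over all genes was 6.56e-05. Of the members, 11 were higher and 1, Slc17a6, was lower without overlap between the groups, together 31.6% beside 12.4% of all genes. Among the 11 were Snap25 and Doc2b, below level 5 on all arrays, and Rph3a, which reached it on only 1 Ptch+/- array. At an unadjusted p under 0.05 there were 14 higher and 1 lower, 39.5% beside 17.3% of all genes.

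Itsn1 was measured at 4.52, 4.43, 4.41 and 4.55 in wild type and, in Ptch+/- GNPs, at 5.86, 6.07, 6.20 and 5.52. All 4 wild-type arrays lay below level 5 and all 4 Ptch+/- arrays above it. The difference was 1.44 ± 0.19 on the log2 scale (SE, n = 4 per genotype, adjusted p = 0.0070), at least 1.88-fold higher, and it was called in all 17 alternatives run for it. A second Itsn1 probe, ILMN_2627268, was lower on the scale and differed the same way, with 4.41, 4.21, 4.19 and 4.27 in wild-type and 4.99, 5.58, 5.51 and 4.83 in Ptch+/- GNPs (0.96 ± 0.16, adjusted p = 0.020). The RefSeq promoter tables of GRCm38.p6 held 31 of the 38 genes. The 250 bases before the start of Itsn1 and of Rims1 are shown because these 2 genes, at different steps of the vesicle cycle, both rose in NdpKO GNPs. Capitals mark GGGCGG, the core of the GC box, on either strand. Itsn1 is on chr16:91729121-91729370, plus strand, and Rims1 on chr1:22806159-22806408, minus strand.
Itsn1: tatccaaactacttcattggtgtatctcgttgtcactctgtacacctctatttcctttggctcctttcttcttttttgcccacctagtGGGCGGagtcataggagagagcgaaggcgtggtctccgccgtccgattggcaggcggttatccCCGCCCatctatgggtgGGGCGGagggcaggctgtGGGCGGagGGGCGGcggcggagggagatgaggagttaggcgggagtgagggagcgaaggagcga
Rims1: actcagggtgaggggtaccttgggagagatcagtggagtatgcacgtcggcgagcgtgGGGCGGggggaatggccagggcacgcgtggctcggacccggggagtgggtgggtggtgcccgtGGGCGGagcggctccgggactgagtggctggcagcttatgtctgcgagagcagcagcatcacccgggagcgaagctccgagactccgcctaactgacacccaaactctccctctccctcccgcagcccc
Both windows hold the GC box, Itsn1 with 5 matches and Rims1 with 2. It was present in 58.5% of the 41 windows of the members and in 32.7% of all 32851 windows. The hedgehog effector motif GACCACCCA was in no member window and in 0.225% of all, and the TCF/LEF motif CTTTGAT in 1 member window, of Sv2b, and 3.21% of all. The neural E-box CAGCTG was in 24.4% of member windows, among them those of Syt1, Cplx2 and Sv2a, and in 13.0% of all windows, but not in the 2 sequences shown. TATAAA was in 7.32% of member windows and 12.4% of all. Of the other letters searched, TGACGTCA (the cAMP response element, 1.55% of all) and TTCAGCACC (the left RE1 part, 0.301%) were each in 1 member window, of Syn1, and the right RE1 part (0.0974%) in none. The median GC content was 59.2% in the first windows of the members and 52.4% in all windows. All 8 motifs were searched on both strands, and none contains another.

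Sv2b was measured at 8.93, 8.36, 8.80 and 8.60 in wild type and, in Ptch+/- GNPs, at 9.84, 9.47, 9.33 and 9.86, without overlap. The difference was 0.95 ± 0.19 (1.94-fold, adjusted p = 0.036). Syn3 was measured at 4.53, 4.27, 4.34 and 4.58 in wild type and, in Ptch+/- GNPs, at 5.53, 5.91, 5.70 and 5.12. Wild type lay below level 5 and Ptch+/- just above it, a difference of 1.13 ± 0.23 (at least 1.48-fold higher, adjusted p = 0.038). Both calls were close to the threshold and were lost in 10 and 8 of 17 alternatives. Sv2b was lost on leaving out any 1 of the 8 arrays and Syn3 on leaving out any but Ptch+/- replicate 4, with adjusted p up to 0.11. Of the 7 Syn3 probes 1 more reached level 5, at 4.24 ± 0.02 (SD, n = 4) in wild type and 5.45 ± 0.70 in Ptch+/-, and a mean over all Syn3 probes gave 0.34.

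Other members were higher in Ptch+/- GNPs on the same arrays without passing the threshold. Slc17a7, which encodes the glutamate transporter VGLUT1 of mature granule neurons, was measured at 5.48, 5.91, 4.68 and 5.09 in wild type and, in Ptch+/- GNPs, at 6.81, 6.78, 6.64 and 6.39. The groups did not overlap, but wild type spread widely and the difference of 1.36 ± 0.36 was not called (adjusted p = 0.10). Slc17a6, which encodes VGLUT2 of immature granule neurons, was measured at 11.45, 11.42, 11.68 and 11.61 in wild type and, in Ptch+/- GNPs, at 11.18, 11.32, 11.30 and 11.39 (-0.24 ± 0.21, adjusted p = 0.73). The 2 glutamate transporters therefore lay on opposite sides of 0. Among the synapsins, which tether vesicles to actin, Syn1 was measured at 9.40, 9.57, 9.47 and 9.99 in wild type and, in Ptch+/- GNPs, at 10.02, 10.13, 9.91 and 9.88 (0.38 ± 0.16, adjusted p = 0.32). Its dimmer probe, ILMN_2762083, was called, with 8.66 to 8.88 in wild-type and 9.16 to 9.48 in Ptch+/- GNPs (0.51 ± 0.09, adjusted p = 0.023). Syp, the vesicle protein synaptophysin, was measured at 11.61, 11.67, 11.70 and 12.004 in wild type and, in Ptch+/- GNPs, at 12.08, 12.17, 12.03 and 11.92 (0.30 ± 0.09, adjusted p = 0.14). One wild-type array, replicate 4, overlapped with Ptch+/-. Stx1a, the syntaxin of the SNARE core, was measured at 9.13, 9.05, 9.22 and 9.29 in wild type and, in Ptch+/- GNPs, at 9.43, 9.55, 9.54 and 9.40 (0.31 ± 0.14, adjusted p = 0.37). The calcium sensor Syt1 (0.10 ± 0.14), synaptobrevin Vamp2 (0.06 ± 0.11), the clamp Cplx2 (0.13 ± 0.16) and the priming factor Unc13a (0.09 ± 0.24) differed by less than their SE.

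**Figure D2:**
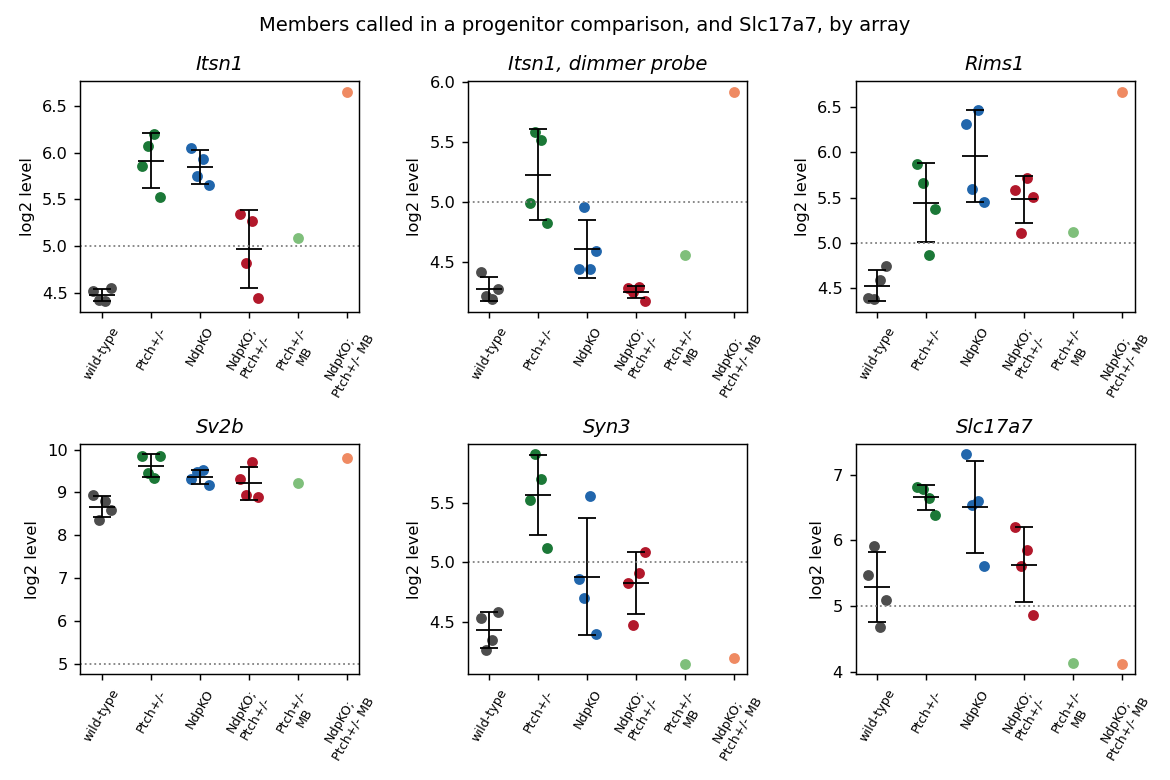
Log2 level on each array (points) of Itsn1 at both its probes, Rims1, Sv2b, Syn3 and Slc17a7, with mean and SD of the 4 arrays of a GNP genotype (black bars) and single points for the 2 MBs. The dotted line is level 5. For Itsn1 the wild-type arrays sit between 4.41 and 4.55, the Ptch+/- and NdpKO arrays between 5.52 and 6.20, and the NdpKO;Ptch+/- arrays between 4.44 and 5.35.

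In NdpKO GNPs, 2 of the 38 genes rose against wild type and none fell. They were Rims1, the active zone scaffold that recruits calcium channels and primes vesicles, and again Itsn1. These are 5.26% of the members, beside 0.499% of all genes and 0.307% of all probes. Without overlap 5 were higher, 13.2% beside 6.82% of all genes, and the median difference was 0.16 with 31 genes on the positive side. Among the 5 was Rph3a, which reached level 5 on only 1 NdpKO array. This comparison uses the same wild-type arrays as that of Ptch+/-. At an unadjusted p under 0.05 there were 8 higher and none lower, 21.1% beside 14.2% of all genes.

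Rims1 was measured at 4.40, 4.38, 4.59 and 4.74 in wild-type and at 6.31, 5.60, 6.47 and 5.45 in NdpKO GNPs. All wild-type arrays lay below level 5 and all NdpKO arrays above it, a difference of 1.43 ± 0.25 (at least 1.94-fold higher, adjusted p = 0.044). The call was lost in 9 of 17 alternatives, with an adjusted p of 0.23 when only the 2 genotypes were fitted. The other 3 Rims1 probes stayed below level 5 on all arrays. In Ptch+/- GNPs Rims1 was measured at 5.87, 5.67, 4.87 and 5.37, above all wild-type arrays but not called (0.92 ± 0.25, adjusted p = 0.11). Itsn1 was measured at 6.05, 5.75, 5.93 and 5.66 in NdpKO GNPs, a difference of 1.37 ± 0.19 from wild type (at least 1.80-fold higher, adjusted p = 0.015). Without NdpKO replicate 1 or 3 its adjusted p was 0.068 and 0.060. When the array with disagreeing labels was counted as NdpKO, neither gene was called (adjusted p = 0.11 for both). At the dimmer Itsn1 probe, NdpKO arrays lay between 4.44 and 4.96, above wild type but all below level 5.

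Of the other members in NdpKO GNPs, none was called. Sv2b was measured at 9.31, 9.47, 9.53 and 9.17 (0.70 ± 0.19, adjusted p = 0.16), above all wild-type arrays. Syn3 was measured at 4.86, 4.70, 5.56 and 4.40 (0.45 ± 0.23), below level 5 on 3 of 4 arrays. Slc17a7 was measured at 7.31, 6.54, 6.60 and 5.61 (1.22 ± 0.36, adjusted p = 0.20). Replicate 4, which lay with wild type on the first component, gave the lowest Slc17a7, Syn3 and Rims1 levels of its group. Without that array and NdpKO;Ptch+/- replicate 1, 4 members were called, with Slc17a7 (1.53, adjusted p = 0.035) and Napb (0.55, adjusted p = 0.027), the vesicle fusion adaptor beta-SNAP, in addition to Rims1 and Itsn1. Slc17a7 was then also called in Ptch+/- GNPs (adjusted p = 0.033). Syp was measured at 12.15, 11.92, 12.12 and 12.07 (0.32 ± 0.09, adjusted p = 0.18) and Syn1 at 10.24, 9.69, 10.13 and 9.56 (0.30 ± 0.16). Stx1a was measured at 9.58, 9.21, 9.61 and 8.92, with replicate 4 below all wild-type arrays.

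In NdpKO;Ptch+/- GNPs none of the 38 genes was called against wild type, where 0.0508% of all probes were called. At an unadjusted p under 0.05, 4 were higher and 1 lower, 13.2% beside 8.61% of all genes. Only 1, Rims1, was higher without overlap, 2.63% beside 4.34% of all genes. Rims1 was measured at 5.59, 5.11, 5.72 and 5.50 (0.95 ± 0.25, adjusted p = 0.345). Itsn1 was measured at 5.35, 4.82, 5.27 and 4.44, from within the wild-type range to above it (0.49 ± 0.19, adjusted p = 0.61). Slc17a7 was measured at 6.20, 5.62, 5.85 and 4.86 and Sv2b at 9.31, 8.94, 9.71 and 8.89. Both overlapped with wild type (0.34 ± 0.36 and 0.54 ± 0.19).

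Against Ptch+/- GNPs, the comparison that asks what Ndp loss adds in the tumour-prone background, none of the 38 was called (0.0155% of all probes). At an unadjusted p under 0.05 there were 5 lower and none higher, 13.2% beside 11.2% of all genes. Itsn1 (-0.94 ± 0.19, adjusted p = 0.17), Slc17a7 (-1.02 ± 0.36), Syn3 (-0.74 ± 0.23) and Syn1 (-0.33 ± 0.16) were lower in NdpKO;Ptch+/- GNPs without overlap, 10.5% of members beside 5.91% of all genes. Against NdpKO GNPs none was called (0.00442% of all probes), 2 were lower and none higher at an unadjusted p under 0.05 (5.26% beside 6.56% of all genes), and Itsn1 alone did not overlap (-0.88 ± 0.19), 2.63% beside 2.56%. Without both arrays that lay apart, 2 members were called in each of these comparisons. Itsn1 fell by 1.07 in both, and Slc17a6 was higher by 0.50 in both (adjusted p from 0.018 to 0.041).

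The interaction, which asks whether the compound genotype departs from the sum of the single ones, was called for Itsn1 alone among the 38, 2.63% of members beside 0.495% of all probes. Its interaction term was -2.31 ± 0.27 on the log2 scale (limma, adjusted p = 0.0078). All wild-type and some NdpKO;Ptch+/- arrays lay below level 5, so this size is uncertain. Both single genotypes lay above wild type, and the compound genotype lay between wild type and them. At the dimmer Itsn1 probe NdpKO;Ptch+/- GNPs lay at 4.28, 4.25, 4.29 and 4.17. That probe was below level 5 on all wild-type, NdpKO and NdpKO;Ptch+/- arrays. Its interaction was called as negative (limma, adjusted p = 0.038) but gives no size. Of the members 30 were on the negative side (median -0.12), and 13 were lower and none higher at an unadjusted p under 0.05, 34.2% beside 17.7% of all genes, among them Slc17a7 (-2.25), Rims1 (-1.39), Syn3 (-1.19), Sv2b (-1.11), Syn1 (-0.63) and Syp (-0.40). The call of Itsn1 was kept in 23 of 24 alternatives and lost when the array with disagreeing labels was counted as NdpKO (-2.06, adjusted p = 0.10). Without both arrays that lay apart 7 members were called, Itsn1, Slc17a7, Rims1, Syn3, Sv2b and Napb as negative and Slc17a6 as positive (0.74, adjusted p = 0.0091). Those arrays were picked from the same data, and the share of all genes called without them is not given here.

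Syt1, Vamp2, Cplx2 and Unc13a, of the release machinery, were not called between the GNP genotypes. Syt1 was measured at 10.76, 10.92, 11.15 and 11.34 in wild type, 11.13, 11.39, 11.08 and 10.96 in Ptch+/-, 11.37, 11.08, 11.65 and 11.16 in NdpKO, and 11.40, 11.25, 11.18 and 11.18 in NdpKO;Ptch+/-. Vamp2 was measured at 10.06, 10.18, 10.38 and 10.22 in wild type, 10.25, 10.49, 10.19 and 10.17 in Ptch+/-, 10.35, 10.27, 10.43 and 10.23 in NdpKO, and 10.05, 10.19, 10.55 and 10.40 in NdpKO;Ptch+/-. All 4 genotypes overlapped for both genes. At the other Syt1 probes that reached level 5, NdpKO GNPs lay higher than wild type by 0.50 ± 0.17 (adjusted p = 0.28) and, at ILMN_1226085, by at least 1.65-fold (adjusted p = 0.17), again with overlap. Cplx2 was measured at 9.21, 9.14, 9.05 and 9.61 in wild type, 9.33, 9.62, 9.44 and 9.14 in Ptch+/-, 9.51, 9.14, 9.65 and 9.67 in NdpKO, and 9.65, 9.33, 9.48 and 9.82 in NdpKO;Ptch+/-. The largest of its 3 differences from wild type was 0.32 ± 0.16 in NdpKO;Ptch+/- GNPs, which overlapped. Unc13a was measured at 5.75, 5.57, 5.59 and 5.91 in wild type, 5.83, 4.98, 6.40 and 5.98 in Ptch+/-, 5.74, 5.99, 6.21 and 6.29 in NdpKO, and 6.05, 6.11, 5.76 and 6.05 in NdpKO;Ptch+/-. Its Ptch+/- arrays held both the lowest and the highest value of the 16.

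Napb was measured at 8.68, 8.87, 8.79 and 8.95 in wild type, 9.17, 9.29, 9.17 and 9.001 in Ptch+/-, 9.55, 9.10, 9.45 and 8.98 in NdpKO, and 8.93, 9.03, 9.16 and 9.13 in NdpKO;Ptch+/-. Both single mutants lay above every wild-type array, by 0.34 ± 0.12 and 0.45 ± 0.12, without a call (adjusted p = 0.206 and 0.145). Sv2a, the vesicle glycoprotein related to Sv2b, was measured at 9.34, 9.17, 9.26 and 9.96 in wild type, 9.78, 10.20, 9.57 and 9.91 in Ptch+/-, 9.89, 9.77, 9.87 and 9.59 in NdpKO, and 9.53, 9.46, 9.70 and 9.43 in NdpKO;Ptch+/-. Only wild-type replicate 4 reached into the Ptch+/- range. Syt11 was measured at 8.58, 8.80, 9.12 and 8.84 in wild type, 8.82, 8.9998, 8.87 and 8.98 in Ptch+/-, 9.04, 9.19, 8.76 and 9.02 in NdpKO, and 8.84, 8.95, 9.15 and 9.06 in NdpKO;Ptch+/-. Rab3a was measured at 10.81, 11.02, 10.91 and 11.02 in wild type, 10.70, 11.06, 10.75 and 10.60 in Ptch+/-, 10.70, 10.91, 10.76 and 10.84 in NdpKO, and 10.77, 10.95, 10.88 and 11.23 in NdpKO;Ptch+/-. These last 2 genes overlapped between all genotypes, and at this Rab3a probe both single mutants lay on the negative side. At the second Rab3a probe, ILMN_2673188, Ptch+/- GNPs lay higher than wild type by 0.31 ± 0.14, with overlap (limma, adjusted p = 0.355). NdpKO GNPs differed there by -0.02 ± 0.14.

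In NdpKO;Ptch+/- GNPs the remaining genes followed with Syp at 11.78, 12.05, 12.05 and 11.97, Syn1 at 9.84, 9.47, 9.70 and 9.61, Stx1a at 9.09, 9.05, 9.46 and 9.05, and Syn3 at 4.83, 4.47, 4.91 and 5.09. Their differences from wild type were 0.22 ± 0.09, 0.05 ± 0.16, -0.01 ± 0.14 and 0.39 ± 0.23, none of them called. Slc17a6 was measured at 11.47, 11.06, 11.35 and 12.01 in NdpKO and at 10.92, 11.83, 11.83 and 11.73 in NdpKO;Ptch+/- GNPs. In each of these groups the array that lay apart held the value farthest from the others, replicate 4 of NdpKO above and replicate 1 of NdpKO;Ptch+/- below.

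**Figure D3:**
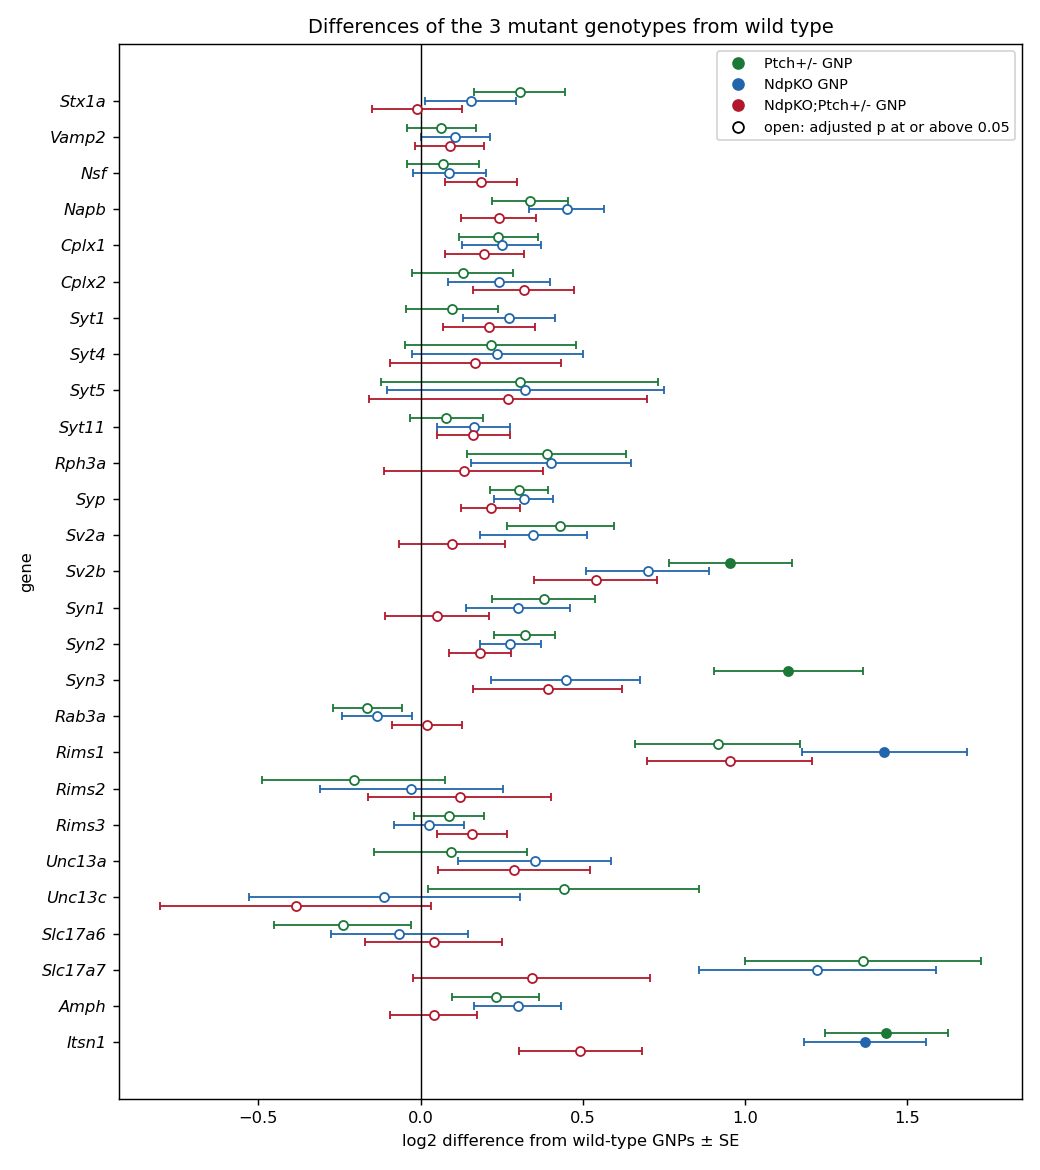
Log2 difference from wild-type GNPs ± SE (x axis, n = 4 arrays per genotype) of the 27 genes that reached level 5 on any array, for Ptch+/-, NdpKO and NdpKO;Ptch+/- GNPs, which share the wild-type arrays. Filled points passed an adjusted p of 0.05. Itsn1 lies at 1.44, 1.37 and 0.49 and Slc17a7 at 1.36, 1.22 and 0.34.

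A further 70 of 74 genes of the same machinery were on the array, covering other SNAREs, synaptotagmins, vesicle and Rab proteins, active zone proteins, transporters and endocytic adaptors. Of these, 1 rose in Ptch+/- GNPs, the vesicular SNARE Vamp7 (0.36 ± 0.07, adjusted p = 0.030), and 1 in NdpKO GNPs, the endophilin Sh3gl2 (0.38 ± 0.07, adjusted p = 0.047). Over all genes, 1.70% were called in Ptch+/- and 0.499% in NdpKO GNPs. None of the related genes fell in these, and none was called in NdpKO;Ptch+/- GNPs against any genotype or in the interaction. Their median differences were 0.01 in Ptch+/- and 0.02 in NdpKO GNPs.

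Markers of other cells differed between the same groups. The mean level of 10 astrocyte and Bergmann glia markers lay between 8.20 and 8.70 in wild-type, 7.52 and 7.87 in Ptch+/-, 7.11 and 8.04 in NdpKO and 7.77 and 8.10 in NdpKO;Ptch+/- GNPs. That of 10 endothelial markers lay between 7.36 and 8.45 in wild-type, 6.71 and 7.45 in Ptch+/-, 6.73 and 7.67 in NdpKO and 7.03 and 8.30 in NdpKO;Ptch+/- GNPs. The 10 postmitotic granule neuron markers lay between 8.26 and 8.44 in wild-type, 8.60 and 8.72 in Ptch+/-, 8.55 and 8.84 in NdpKO and 8.44 and 8.55 in NdpKO;Ptch+/- GNPs, and the 38 synaptic genes between 7.01 and 7.25, 7.22 and 7.52, 7.20 and 7.48, and 7.19 and 7.31. The mean of 9 GNP identity markers lay between 8.94 and 9.03 in wild-type, 9.15 and 9.29 in Ptch+/-, 8.99 and 9.25 in NdpKO and 8.95 and 9.16 in NdpKO;Ptch+/- GNPs. On average over arrays, the GNP identity, granule neuron and synaptic lists were thus higher in the 2 single mutants than in the other genotypes. The astrocyte and Bergmann glia, the endothelial, and the Purkinje and GABAergic interneuron lists were lower in them. Of the GNP identity markers Zic2, Zic4 and Ccnd2 rose in Ptch+/- GNPs, and 3 were called negative in the interaction. Of the other markers Cntn2, Grin2b and Kcnd2 rose in Ptch+/- GNPs, Kcnd2 also rose in NdpKO and NdpKO;Ptch+/- GNPs, and Gfap fell in NdpKO GNPs. In Ptch+/- GNPs 1 oligodendrocyte lineage marker fell, and 2 postmitotic granule neuron markers were called negative in the interaction. Of 8 Purkinje and GABAergic interneuron markers none was called in the genotype comparisons. Their mean level was 6.71 to 7.38 in wild-type, 6.31 to 7.06 in Ptch+/-, 6.39 to 7.19 in NdpKO and 6.41 to 7.49 in NdpKO;Ptch+/- GNPs. The part of cell composition in the differences of the synaptic genes was not tested.

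**Figure D4:**
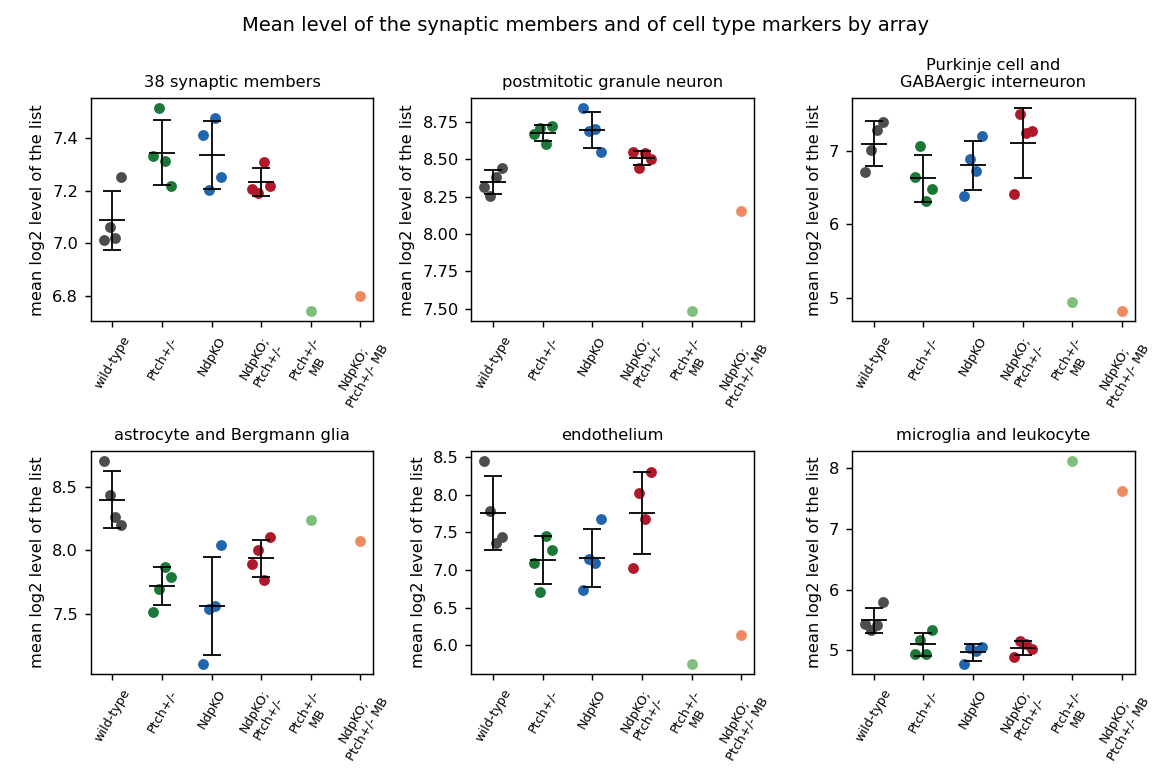
Mean log2 level of the 38 synaptic genes and of 5 marker lists on each array (points), with mean and SD of the 4 arrays of each GNP genotype and single points for the 2 MBs. The synaptic mean of both MBs (6.74 and 6.80) lies under all 16 GNP arrays, as does the mean of the Purkinje and GABAergic markers (4.94 and 4.82).

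The 2 MBs were set against the 8 GNP arrays of the genotypes they arose in, with genotype held in the fit. The MBs were dissected tissue of symptomatic mice and the GNPs purified cells. Tumour, age and preparation therefore cannot be told apart in this comparison. Of the 38 genes 9 fell in the tumours, among them the calcium sensor Syt1, the vesicle proteins Syp and Sv2a, and Slc17a7. Another 2, Vamp1 and Dnm1, passed the threshold as higher but lay below level 5 on all arrays, with differences of 0.09 and 0.02. Together these are 28.9% of members beside 17.7% of all genes and 14.7% of all probes. Without overlap 12 were lower and 3 higher, 39.5% beside 26.8% of all genes. Vamp1 and Dnm1 were among the 3, and Doc2b, also below level 5 on all arrays, was among the 12. The median difference was -0.15, beside -0.0012 over all genes. Recentring each array on its brighter probes moved the median over all genes to 0.17 and that of the members to 0.02, with 13 members called higher and 10 lower, and no member called in both changed direction. Of the 13, 10 were below level 5 on all arrays, with differences of 0.14 to 0.26, and the other 3 were Rims2, Rims3 and Slc17a6. Without the Ptch+/- MB 7 members were called, Itsn1 (1.69, adjusted p = 0.036) and Syt4 among them, and 13 without the NdpKO;Ptch+/- MB.

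Syt1 was measured at 7.41 in the Ptch+/- and 7.25 in the NdpKO;Ptch+/- MB, while the 16 GNP arrays lay between 10.76 and 11.65. It fell by 3.87 ± 0.11 on the log2 scale (14.6-fold lower, adjusted p = 3.18e-07). At its probe ILMN_2608416 the tumours lay at 4.40 and 4.21, near background, and the GNP arrays between 8.47 and 9.46 (at least 16.4-fold lower, adjusted p = 2.15e-06). Its relative Syt11 was measured at 7.12 and 7.44 against 8.58 to 9.19 in GNPs (3.19-fold lower, adjusted p = 1.22e-05). Syt5, below level 5 in both tumours (4.13 and 4.14) and between 4.69 and 6.62 in GNPs, was not called (adjusted p = 0.057), but was without the arrays that lay apart (adjusted p = 0.042).

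Among vesicle membrane genes, Syp was measured at 10.62 and 10.87 in the tumours against 11.61 to 12.17 in GNPs (2.40-fold lower, adjusted p = 1.21e-04). Sv2a was measured at 7.15 in the Ptch+/- and 8.76 in the NdpKO;Ptch+/- MB against 9.17 to 10.20 in GNPs (3.35-fold lower, adjusted p = 0.019). Both tumours lay below all GNP arrays but apart from each other, and without the Ptch+/- MB the Sv2a difference was -0.77 and not called (adjusted p = 0.076). Rab3a, a small GTPase that tethers vesicles, was measured at 9.56 and 9.77 against 10.60 to 11.23 in GNPs (2.29-fold lower, adjusted p = 8.21e-04). Syn3 lay near background in the tumours, at 4.15 and 4.19 (at least 1.14-fold lower, adjusted p = 0.033), and its call was lost in 9 of 17 alternatives. Syn1 (9.77 and 9.53) and Sv2b (9.23 and 9.80) lay within the range of the GNP arrays at their brightest probes. The dimmer Syn1 probe, ILMN_2762083, lay at 8.56 and 8.72 in the tumours and was called lower against 8.80 to 9.48 in the 8 GNP arrays compared (1.43-fold, adjusted p = 0.036). A second Sv2b probe, ILMN_1243974, went the other way from background, with 4.14 to 4.17 in all GNPs and 6.36 and 5.75 in the tumours (at least 2.08-fold higher, adjusted p = 2.04e-05). Both genes' probes thus disagreed on the tumours.

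Of the fusion machinery, Vamp2 was measured at 9.15 and 9.63 in the tumours against 10.05 to 10.55 in GNPs (1.86-fold lower, adjusted p = 0.0063), and Napb at 7.89 and 8.19 against 8.68 to 9.55 (2.10-fold lower, adjusted p = 3.65e-04). Stx1a (9.22 and 8.99) and Nsf (9.01 and 9.17) lay within the range of the GNPs. The 2 glutamate transporters went apart again. Slc17a7 was measured at 4.14 and 4.12, at background, against 4.68 to 7.31 in GNPs (at least 2.21-fold lower, adjusted p = 0.0063), whereas Slc17a6 was measured at 11.68 and 12.79 against 10.92 to 12.01 (0.80 ± 0.27, adjusted p = 0.099). Slc17a6 was called higher without the arrays that lay apart (0.68, adjusted p = 0.015). Without the Ptch+/- MB, Vamp2 (-0.67, adjusted p = 0.092) and Slc17a7 (-1.51, adjusted p = 0.091) were not called. Cplx2 (8.42 and 9.37), Rims1 (5.12 and 6.67), Unc13a (4.18 and 5.59) and Itsn1 (5.08 and 6.66) differed between the tumours and were not called. Of the 38 genes, 11 lay below all 16 GNP arrays in both tumours, 28.9% beside 11.5% of all genes, and none above.

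**Figure D5:**
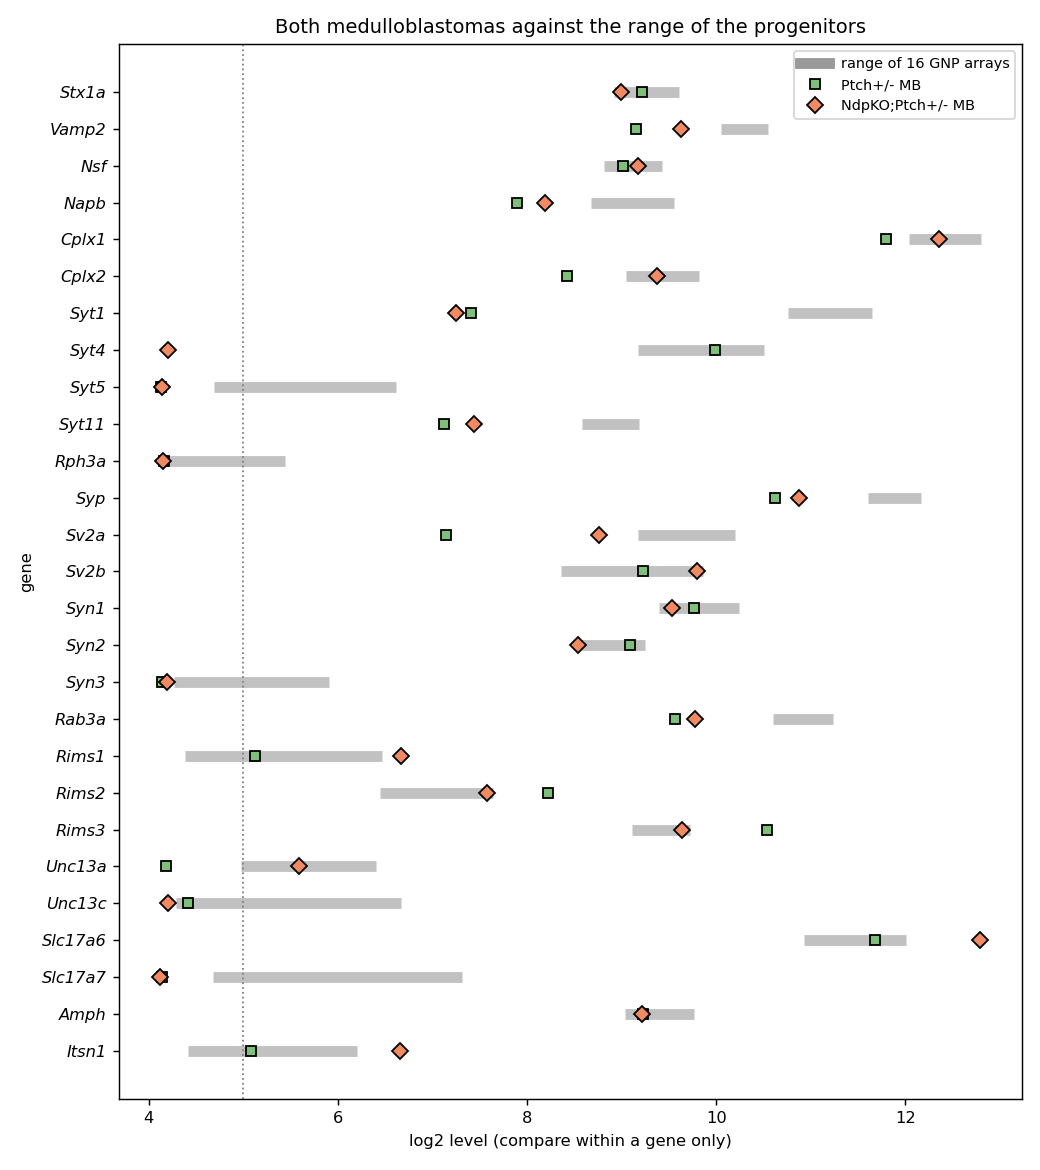
Log2 level of 27 genes in the Ptch+/- MB (square) and the NdpKO;Ptch+/- MB (diamond) against the range of the 16 GNP arrays (grey bar), to be compared within a gene only. The dotted line is level 5. Syt1 in both tumours lies at 7.41 and 7.25, under GNP arrays of 10.76 to 11.65, and Syt4 lies at 9.99 in one and 4.20 in the other.

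The related genes moved in both directions in the tumours, with 17 of 70 lower and 7 higher, while 17.7% of all genes were called in either direction. Lower were Sncb, beta-synuclein (-3.36 ± 0.36, adjusted p = 5.75e-04), the active zone gene Erc2 (-1.87 ± 0.17), the release factor Cadps2 (-1.82 ± 0.26), Syngr3 (-1.45 ± 0.15) and Syt7 (-1.94 ± 0.46). Higher were the clathrin light chain gene Cltb (2.09 ± 0.31, adjusted p = 0.0028) and Bin1 (0.88 ± 0.06). The largest fall among the 17 was that of Slc32a1, the transporter that fills GABA vesicles, with 9.69 to 11.05 in the 16 GNP arrays and 4.24 and 4.12 in the tumours (at least 36.3-fold lower, adjusted p = 4.57e-07). Beside it, Gad1, which marks GABAergic interneurons, had means of 8.66 to 9.28 in the GNP genotypes and lay at 4.54 and 4.14 in the tumours. The endothelial markers lay at a mean level of 5.75 and 6.13 and 10 microglia and leukocyte markers at 8.12 and 7.62 in the tumours, against 4.77 to 5.80 for the latter in GNPs. The mean of the postmitotic granule neuron markers lay at 7.48 and 8.15 in the tumours, against 8.26 to 8.84 in the 16 GNP arrays. That of 9 oligodendrocyte lineage markers lay at 6.92 and 7.04, against 8.04 to 9.17. Both lists were split. Of the granule neuron markers 1 was called higher and 3 lower (median difference -0.07, from -4.605 to 0.89). Of the oligodendrocyte lineage markers 3 were called higher and 4 lower (median difference 0.02, from -6.81 to 1.90). The part of these cells in the lower synaptic levels of the tumours was not tested.

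Between the 2 tumours there is no replicate and no test. In measured values, 5 of the 38 genes were higher in the NdpKO;Ptch+/- MB by at least 1 on the log2 scale and 1 was lower, while 5.05% of all genes differed by as much. Higher were Sv2a (1.62), Itsn1 (1.57), Rims1 (1.55) and Slc17a6 (1.11). Unc13a, counted among the 5, lay below level 5 in the Ptch+/- MB (4.18), so that only a bound of at least 1.51-fold can be given. Syt4, a synaptotagmin that does not bind calcium in the usual way, was at least 31.8-fold lower, with 9.99 in the Ptch+/- MB, inside the GNP range of 9.17 to 10.51, and 4.20, near background, in the NdpKO;Ptch+/- MB. The second Rab3a probe, ILMN_2673188, lay at 5.33 and 7.46, while the brighter one differed by 0.21. Both tumours lay below level 5 for 16 members.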

How the data were processed

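RNA of 16 GNP samples and 2 MBs was hybridised to Illumina BeadChips. Per the study's methods, the authors exported BeadStudio signals and made the deposited log2 values with limma's neqc, which corrects background with control probes and quantile-normalizes, so levels are compressed near background and groups cannot differ in their overall distribution. All 45281 probes entered the fits, while the authors' filter on poorly matching probes was not applied. Probes were named from GEO's platform annotation, and each gene was followed at its probe with the highest mean over 18 arrays. Samples were grouped by title. limma 3.58.1 in R 4.3.3 fitted 1 mean per GNP genotype over 16 arrays, and for the tumours the tissue with genotype as covariate over 10 arrays. Tests were two-sided with Benjamini-Hochberg adjustment over all probes. Precision is limited by the number of arrays. Scripts were tested on simulated data. Values on every array are given for members called in a tested comparison and for 14 members named whatever their values, and ranges for those below level 5 throughout. The members, lists and level 5 were chosen with earlier results of these data known. Alternatives were a fit on compared genotypes, other variance and weight settings, a filter on dim probes, other probe rules, a replicate block, recentring, regrouping and leaving out arrays.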

Additional observations from a re-analysis of the deposited data

Results flagged for a closer look

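Of 103 groups of 4 arrays examined, 4 held an array far from the other 3, where chance alone flags about 1 in 20. Stx1a lay at 9.46 in NdpKO;Ptch+/- replicate 3, beside 9.05 to 9.09 on the others. Rph3a, a Rab3 effector, lay at 5.45 in NdpKO replicate 3, beside 4.32 to 4.42. Rims2 lay at 6.45 in wild-type replicate 3, beside 7.47 to 7.63. Slc17a6 lay at 10.92 in NdpKO;Ptch+/- replicate 1, one of the arrays that lay apart, beside 11.73 to 11.83. The effect of Ndp loss on Itsn1 differed between Ptch+/- and wild-type GNPs by -2.31 on the log2 scale, from higher to lower, by limma's interaction term (adjusted p = 0.0078). The array whose labels disagree and the arrays below level 5 bear on it, as given with that comparison.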

How the results depend on the processing

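No called gene changed direction under the alternatives run. The medians of the members moved by less than the spread between GNP replicates of their per-array median level (0.318). All main median differences were themselves smaller than that spread, so this cannot show that they are stable. The tumour median changed sign, to 0.02, on recentring. With the filter on dim probes, 5 members were called in Ptch+/- and 4 in NdpKO GNPs against wild type, 1 in NdpKO;Ptch+/- against Ptch+/- GNPs and 5 in the interaction. With the replicate block, 1 was called in each of Ptch+/- and NdpKO against wild type, and no other count moved by over 1.5 times. Replicate numbers did not pair the arrays (24 same-number pairs, median correlation -0.0412, from -0.339 to 0.471, and 4 of 16 arrays closest to their own number). The fit on the compared genotypes alone gave 1 for NdpKO, and the mean of all probes 1 for NdpKO;Ptch+/- against Ptch+/-. The interaction gave 3 with trended robust variances and 2 with array weights. With the array of disagreeing labels as NdpKO, NdpKO against wild type and the interaction gave 0. Without both arrays that lay apart, the counts were 4 in NdpKO, 2 in NdpKO;Ptch+/- against Ptch+/- and against NdpKO, and 7 in the interaction. Because those arrays were picked from the same data, the added calls are no independent support. Recentring gave 23 in the tumours, 10 of them called higher at probes below level 5 on all arrays. Leaving out 1 array gave 1 to 3 in Ptch+/-, 0 to 3 in NdpKO, 0 to 1 in NdpKO;Ptch+/- against Ptch+/- (1, Itsn1, without NdpKO;Ptch+/- replicate 1), 1 to 5 in the interaction (5 without NdpKO replicate 4) and 7 to 13 in the tumours (7 without the Ptch+/- MB). With a single MB the lone tumour is assumed to vary like the GNP arrays. The causes were not tested. At probes near background, as for Snap25 and Bsn, a call gives no size of a difference, and Snap25 and Bsn were called on recentring (0.16 and 0.17).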
